A study of Mus musculus with 6 samples.

Results

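The 10 genes described here encode the junctions and transporters that give brain capillaries their barrier: Cldn5, Ocln, Tjp1, Abcb1a, Abcg2, Mfsd2a, Slco1a4, Slco1c1, Tfrc and Slc7a5. They were chosen by symbol from the 32285 genes of the matrices, and each symbol matched 1 gene. The measurements are counts of UMIs (unique molecular identifiers, 1 per captured transcript) in single nuclei of mouse cortex that had been sorted as negative for NeuN, a protein of neuronal nuclei. There were 6 libraries in 3 groups of 2, all from 7.5-month-old mice on 5xFAD, a transgenic strain that makes mutant human amyloid precursor protein and presenilin in neurons, under the Thy1 promoter, and forms amyloid plaques. The first group was 5xFAD alone, and the others also carried the M28L or the P522R variant of Plcg2 (named here 5xFAD-M28L and 5xFAD-P522R, or M28L and P522R in comparisons). The variants' zygosity is not given in the sources used here, no sample lacks the 5xFAD transgenes, and both sexes were mixed in each library. Plcg2 encodes a phospholipase best known in immune cells.

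Endothelial cells of brain capillaries are joined by tight junctions, so that solutes have to pass through the cells. Nutrients then enter by carriers and receptors, and many lipid-soluble compounds are pumped back into the blood by transporters of the ABC family. Wnt signals from the surrounding tissue, acting through β-catenin and TCF/LEF factors, turn on much of this programme, while ETS factors act on endothelial genes in general.

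To show what such factors could read, the 250 bases before the RefSeq start are printed for the 4 members with a single start that lies near the start of the GENCODE gene model (RefSeq promoter table, GRCm38.p6, 5′ to 3′ on the gene's strand). The windows are chr16:18776597-18776846 on the plus strand for Cldn5, chr4:122961189-122961438 on the minus strand for Mfsd2a, chr6:141856221-141856470 on the minus strand for Slco1a4, and chr6:141524104-141524353 on the plus strand for Slco1c1. Capitals mark matches, on either strand, to CTTTGA (a TCF/LEF core, TCAAAG on the other strand) or AGGAAG (an ETS core, CTTCCT on the other strand). CCGGAAGT, a longer ETS form, was also searched and has no match in them.
Cldn5: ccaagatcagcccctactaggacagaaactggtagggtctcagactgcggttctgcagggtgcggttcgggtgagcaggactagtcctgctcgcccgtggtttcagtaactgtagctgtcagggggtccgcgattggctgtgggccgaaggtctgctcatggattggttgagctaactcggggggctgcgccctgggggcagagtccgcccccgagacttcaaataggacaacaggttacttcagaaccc
Mfsd2a: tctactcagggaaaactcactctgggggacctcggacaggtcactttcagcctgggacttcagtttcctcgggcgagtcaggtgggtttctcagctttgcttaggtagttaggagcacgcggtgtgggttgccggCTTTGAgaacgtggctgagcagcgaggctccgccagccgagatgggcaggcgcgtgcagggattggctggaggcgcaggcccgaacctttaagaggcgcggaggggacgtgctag
Slco1a4: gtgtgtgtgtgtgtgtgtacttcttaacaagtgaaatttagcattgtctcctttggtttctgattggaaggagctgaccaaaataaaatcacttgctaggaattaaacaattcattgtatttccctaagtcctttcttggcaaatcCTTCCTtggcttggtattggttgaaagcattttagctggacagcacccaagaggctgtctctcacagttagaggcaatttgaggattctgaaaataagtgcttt
Slco1c1: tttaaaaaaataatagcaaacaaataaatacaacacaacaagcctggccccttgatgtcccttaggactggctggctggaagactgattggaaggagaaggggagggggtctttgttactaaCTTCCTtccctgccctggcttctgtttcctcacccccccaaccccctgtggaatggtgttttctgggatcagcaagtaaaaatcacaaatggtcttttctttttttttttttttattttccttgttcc

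The Cldn5 window held none of the 3 motifs. Mfsd2a held 1 CTTTGA, 115 bases before the start. Slco1a4 and Slco1c1 each held 1 AGGAAG on the minus strand of the gene, 104 and 128 bases before the start. Over all 9 members with an entry (Slc7a5 had none) and their 13 start sites, AGGAAG occurred at 7 start sites of 5 members, CTTTGA at 2 of 2 members (Abcb1a and Mfsd2a) and CCGGAAGT at 0. Of 32851 promoters of the same length, 1 per start site, 29.5% held AGGAAG, 13.8% held CTTTGA and 2.88% held CCGGAAGT. CCGGAAGT contains only part of AGGAAG, and the motifs do not contain one another. A match is a run of letters and not a binding site.

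Library totals ran from 53326947 to 72288942 UMIs, and 59689 nuclei remained after called doublets were removed. Of these, 406 (0.68%) fell in the cluster called endothelial-like, with 138 and 69 nuclei in 5xFAD replicates 2 and 3, 74 and 59 in 5xFAD-M28L, and 50 and 16 in 5xFAD-P522R. Each value from 5xFAD-P522R replicate 3 therefore rests on 16 nuclei and 62128 UMIs, and its file header names another Cell Ranger version than the other 5. For comparisons with that group, the counts and medians of the members are also given without this library. Most single fold changes are not. All 16 endothelial markers on the list were detected in these nuclei, with a summed level of 19025 to 23176 CPM (UMIs of the gene per 1000000 UMIs of the same nuclei) per library, and neither they nor the clustering used any of the 98 barrier genes studied here. Pericyte-like nuclei numbered 493, fibroblast-like 872 and astrocyte-like 3883. Libraries shared 503 barcode sequences, and 6 endothelial-like barcodes occurred in another library too. The labels do not say whether replicates were separate animals, and the spread behind each p-value is that of libraries, which may be technical.

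Endothelial-like nuclei had the highest level of each of the 10 genes, in all 6 libraries, among the 10 cell types with enough nuclei in each library. The margin over the next cell type ran from 2.25-fold for Tjp1 to 276-fold for Cldn5. The genes therefore differed in how far the other cells of the vessel wall shared them. Because the clusters were made from the same nuclei, these differences are described without a test, and CPM is not corrected for gene length, so a gene is compared across cell types and not with another gene.

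**Figure D1:**
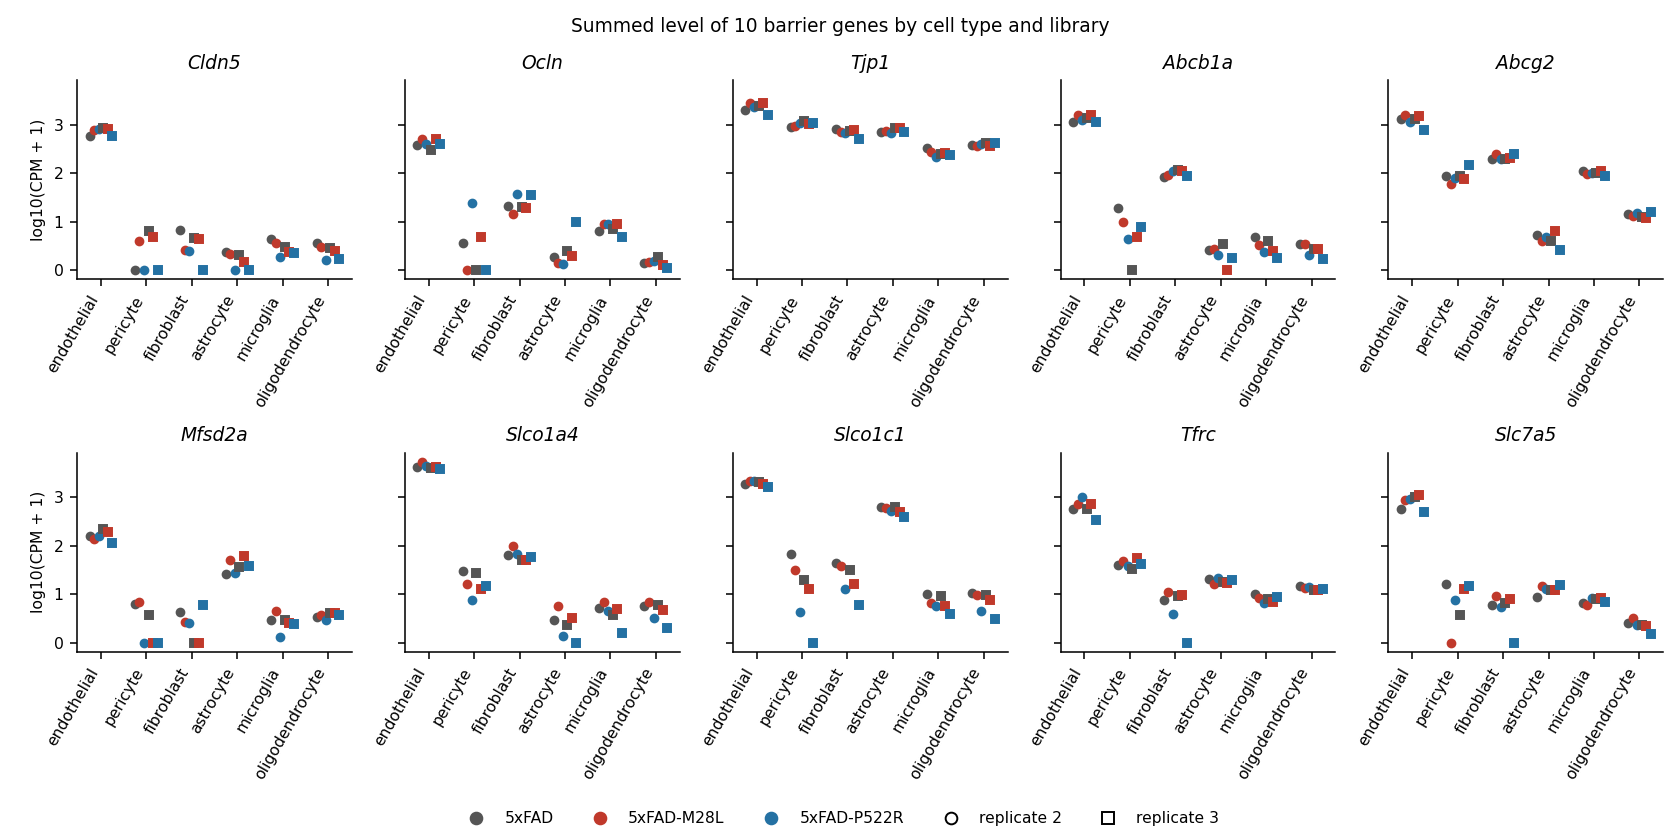
Summed level of each barrier gene in 6 cell types, as log10(CPM + 1) on the vertical axis, with 1 point per library (grey 5xFAD, red 5xFAD-M28L, blue 5xFAD-P522R; circles replicate 2, squares replicate 3). Endothelial-like nuclei are highest in all 6 libraries for all 10 genes; Tjp1 is also high in pericyte-like nuclei (mean 1036 CPM) and Slco1c1 in astrocyte-like nuclei (mean 540.1 CPM).

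Among the junction genes, Cldn5, which encodes the claudin that seals brain endothelial junctions, lay at 735 ± 120.3 CPM in endothelial-like nuclei (SD, n = 6 libraries). Its next levels were 2.66 ± 2.05 CPM in fibroblast-like, 2.03 ± 2.34 in pericyte-like and 0.67 ± 0.587 in astrocyte-like nuclei, which overlapped in their spread. The gene ENSMUSG00000041378 spans chr16:18776847-18778262 (GRCm38). Endothelial-like nuclei held 52.5% of all Cldn5 UMIs while holding 0.484% of all UMIs. Of the 2402 Cldn5 UMIs, 704 were in an unnamed cluster of 47 nuclei led by Vtn, Rgs5 and Ndufa4l2, described at the end, which also had endothelial markers. This cluster is not counted as endothelial-like in the shares of UMIs given here and for the genes below, so they understate the endothelial part.

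Ocln, a membrane protein of the tight junction strand, lay at 417 ± 77.8 CPM in endothelial-like nuclei. Fibroblast-like nuclei followed at 23.6 ± 9.52 CPM. Pericyte-like nuclei had 4.97 ± 9.17 CPM, a mean that rested on 1 library at 23.4 CPM, inside the fibroblast range, and astrocyte-like nuclei had 2.13 ± 3.23. Ocln UMIs were found in endothelial-like nuclei at 39.1% of their total.

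Tjp1, which encodes the scaffold ZO-1 that ties junction proteins to actin, was the least restricted. It lay at 2330.5 ± 491 CPM in endothelial-like, 1036 ± 110.5 in pericyte-like, 759 ± 75.4 in astrocyte-like and 702 ± 107 in fibroblast-like nuclei. The last pair overlapped in their spread, while every endothelial-like library (1545 to 2837 CPM) lay above every pericyte-like one (880.2 to 1182 CPM). Only 2.56% of Tjp1 UMIs were in endothelial-like nuclei, and the lowest level, 91.0 ± 20.8 CPM, was that of border macrophage-like nuclei.

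Both efflux pumps had a second site in fibroblasts. Abcb1a, which encodes P-glycoprotein, the pump that expels many drugs, lay at 1342 ± 196 CPM in endothelial-like nuclei and at 99.2 ± 14.4 in fibroblast-like nuclei. Pericyte-like nuclei had 6.86 ± 6.28 CPM and astrocyte-like nuclei 1.26 ± 0.829. In 2 small clusters that reached the minimum of 15 nuclei in few libraries, the level was above that of fibroblasts: 152 ± 18.4 CPM in olfactory ensheathing-like nuclei (n = 2 libraries) and 149.9 CPM in the 1 library with enough T cell-like nuclei.

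Abcg2, the breast cancer resistance protein, which pumps drugs and conjugates, lay at 1265 ± 295 CPM in endothelial-like nuclei, 216 ± 27.4 in fibroblast-like, 99.4 ± 8.62 in microglia-like and 88.1 ± 29.9 in pericyte-like nuclei. Microglia-like and pericyte-like levels overlapped. Astrocyte-like nuclei were lowest, at 3.57 ± 1.35 CPM. Of all Abcg2 UMIs 16% were in endothelial-like nuclei, against 50.3% for Abcb1a.

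The fibroblast signal of both pumps lay mainly in 1 of 2 fibroblast clusters, which were singled out after their values were seen. In the cluster led by Slc47a1 (169 nuclei, 5 libraries with enough nuclei) Abcb1a lay at 378 ± 62.0 CPM and Abcg2 at 575 ± 82.8, while in the cluster led by Aox3 (703 nuclei, 6 libraries) they lay at 6.32 ± 4.68 and 81.1 ± 6.60. Slco1a4 had the opposite order, at 3.04 ± 1.86 CPM in the first and 88.1 ± 25.3 in the second, as did Tjp1, at 322 ± 54.8 and 855 ± 85.1. Libraries of the 2 clusters did not overlap for any of these 4 genes.

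Of the uptake carriers, Slco1a4, which encodes the organic anion carrier Oatp1a4, lay at 4288 ± 557 CPM in endothelial-like nuclei. It reached 64.0 ± 18 CPM in fibroblast-like, 17.0 ± 8.57 in pericyte-like and 1.75 ± 1.64 in astrocyte-like nuclei. Endothelial-like nuclei held 63.0% of its UMIs, the largest share among the 10 genes.

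Slco1c1, the carrier of the thyroid hormone thyroxine, was shared with astrocytes. Its level was 1951 ± 227 CPM in endothelial-like and 540.1 ± 88.6 in astrocyte-like nuclei, then 23.4 ± 14.8 in fibroblast-like and 21.7 ± 24.6 in pericyte-like nuclei. Since astrocytes were more numerous, 70.3% of Slco1c1 UMIs were theirs and 14.6% were endothelial.

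Mfsd2a, the carrier of lysophospholipids with docosahexaenoic acid, which also keeps transcytosis low, lay at 162 ± 38.8 CPM in endothelial-like nuclei. Committed oligodendrocyte precursors (44.2 ± 9.73 CPM), oligodendrocyte precursors (OPC-like, 41.3 ± 8.47) and astrocytes (38.5 ± 13.5) came next and overlapped one another. Pericyte-like (2.30 ± 2.75) and fibroblast-like nuclei (1.88 ± 1.90) were near the level of oligodendrocyte-like nuclei, 2.63 ± 0.458 CPM. Endothelial-like nuclei held 6.63% of Mfsd2a UMIs and astrocyte-like nuclei 24.3%.

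Astrocytes were not uniform in these 2 carriers. In the cluster led by Rpe65 (3215 nuclei) Slco1c1 lay at 595 ± 71.7 CPM and Mfsd2a at 43.9 ± 15.1. In the clusters led by Myoc (352 nuclei) and Thbs4 (316 nuclei), Slco1c1 lay at 264 ± 69.2 and 288 ± 84.6 CPM and Mfsd2a at 17.1 ± 10.3 and 4.86 ± 4. Slco1c1 in each library of the Rpe65 cluster (484 to 674 CPM) lay above every library of the other two.

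Slc7a5, the large neutral amino acid carrier LAT1, lay at 820.0 ± 241 CPM in endothelial-like nuclei. The next levels, 11.9 ± 1.78 CPM in neuron-like and 11.5 ± 2.25 in astrocyte-like nuclei, overlapped. Tfrc, the transferrin receptor that carries iron across the endothelium, lay at 645 ± 217 CPM. Pericyte-like (41.8 ± 8.12 CPM) and neuron-like nuclei (36.4 ± 2.48) followed and overlapped. These were the members with the widest relative spread between endothelial-like libraries, from 338 to 992 CPM for Tfrc and from 499 to 1088 CPM for Slc7a5.

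In nuclei thinned to 1000 UMIs each (402 endothelial-like nuclei, 4 shallower ones left out), a UMI of Slco1a4 was found in 92.8% (95% exact interval 89.8% to 95.1%), of Tjp1 in 86.1% and of Slco1c1 in 72.1%. The shares were 71.1% for Abcb1a, 69.4% for Abcg2, 50.7% for Slc7a5 and 48.8% for Cldn5. For Tfrc 37.1%, for Ocln 34.6% and for Mfsd2a 14.4% of nuclei had a UMI. Oligodendrocyte-like nuclei, a type that should lack most of these genes, gave 0.432% for Slco1a4, 0.191% for Cldn5 and 0.311% for Mfsd2a, but 29.0% for Tjp1; unthinned, the endothelial-like shares for these 4 genes were 96.3%, 73.2%, 39.2% and 96.3%. Median depths were 3320 UMIs in endothelial-like and 3787 in oligodendrocyte-like nuclei. A median of 6 of the 10 members was found per thinned endothelial-like nucleus, and 93.0% of these nuclei had at least 3, against 2.42% of fibroblast-like, 1.57% of astrocyte-like and 0.408% of pericyte-like nuclei. Intervals cover counting error only.

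The genes of the same pathways were read from 5 lists. Of the tight and adherens junction list 11 of 24 had their highest level in endothelial-like nuclei, of the efflux pumps 2 of 6, of the solute carriers 15 of 22, of the receptors and transcytosis genes 9 of 13, and of the Wnt and transcription factor genes 14 of 23. The highest endothelial levels were 792 ± 85.2 CPM for the polarity protein gene Pard3, 603 ± 85.4 for the adhesion molecule gene Pecam1, 1196 ± 254 for the pump gene Abcc4 and 1296 ± 271 for Slc2a1, the glucose carrier GLUT1. The taurine carrier gene Slc6a6 lay at 1237 ± 139 CPM, the zinc carrier gene Slc39a10 at 1117 ± 335, the growth factor receptor gene Igf1r at 5302 ± 1244 and the insulin receptor gene Insr at 715 ± 52.5. Of the Wnt genes, Lef1, a TCF/LEF factor, lay at 1447 ± 302 CPM and the Wnt inhibitor gene Apcdd1 at 505 ± 142. Pard3 was shared with pericyte-like nuclei (761 ± 92.5 CPM), whereas Pecam1 was not (2.64 ± 2.57 CPM).

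Across the 63 sums of a library and cell type (12 types, 6 libraries, which share depth and library), the genes whose log2(CPM + 1) was most like that of Slco1a4 were Itm2a (Pearson r = 0.948), Cxcl12 (0.945) and Tead4 (0.934). Those most like Cldn5 were Tmem252 (0.944), Slc38a5 (0.943) and Sox18 (0.943), and those most like Ocln were Isg15 (0.906), Stra6 (0.902) and Hspa12b (0.899). Abcb1a was nearest to Paqr5 (0.904), Abcg2 to Gpcpd1 (0.847) and Tfrc to Rasal2 (0.852). Tjp1 was nearest to Plcb4 (0.903), with 1155 CPM in endothelial-like and 447 in astrocyte-like nuclei, Slco1c1 to the metallothionein gene Mt1 (0.878), with 181 and 213 CPM, and Mfsd2a to Lmcd1 (0.813), with 30.8 and 34.5 CPM.

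Within the endothelial-like nuclei, sub-clusters made without the barrier genes separated an arterial (33 nuclei, 8 of 8 arterial markers raised), a capillary (184 nuclei, 4 of 5 markers) and a venous group (32 nuclei, 6 of 7 markers). Rgs5, a pericyte marker, led the capillary group, together with Cxcl12 and the interferon-induced genes Rsad2, Ifitm3 and Ifit1, and none of the capillary markers was among its 10 leading genes. Rgs5 lay at 1324 CPM there, against 10.1 in the arterial, 8.70 in the venous group and 771 in pericyte-like nuclei, while the other 9 pericyte markers summed to 156 CPM there and 10949 in pericyte-like nuclei. The name capillary therefore stands for the sub-cluster with raised capillary markers. These 3 names rest on markers, the libraries were summed, 17 of the 33 arterial nuclei came from 5xFAD replicate 2, and no test was made. Of the 10 genes, 7 were higher in the capillary than in both other groups by more than the Poisson error of their summed UMIs. These were Cldn5, Mfsd2a, Slco1c1, Tfrc, Slc7a5, Slco1a4 and Abcg2, the last with a lower limit of 1.01 for the ratio to venous. That error takes UMIs as independent and leaves out the spread between nuclei and libraries. The 14 venous UMIs of Tfrc came from 3 nuclei and the 57 of Slco1c1 from 10. The sub-clusters were singled out after their values were seen.

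**Figure D2:**
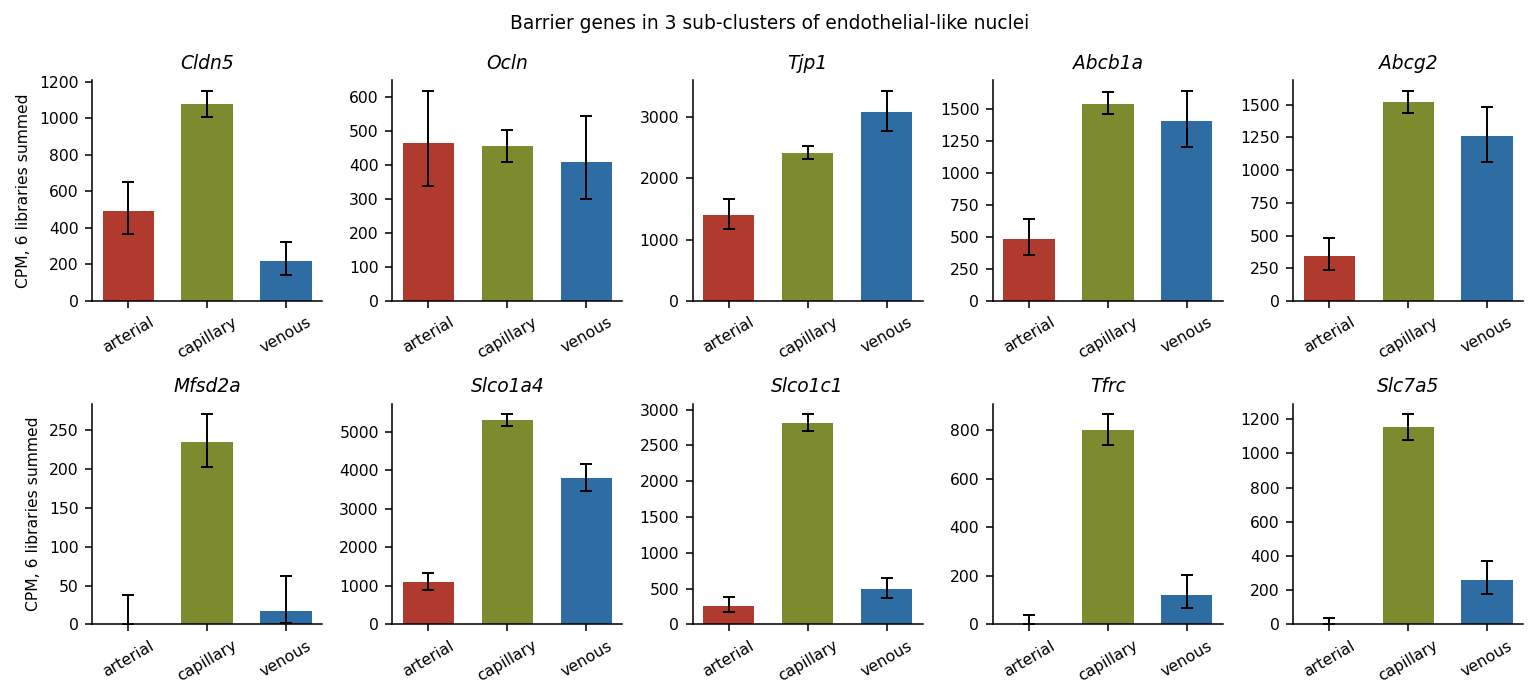
Level of each barrier gene in arterial (red), capillary (green) and venous (blue) sub-clusters of endothelial-like nuclei, in CPM of UMIs summed over 6 libraries, with exact 95% Poisson intervals as bars. Mfsd2a, Tfrc and Slc7a5 have no UMI in the arterial group, while Ocln is nearly level at 464, 455 and 409 CPM.

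Mfsd2a had 234 CPM in capillary nuclei (188 UMIs), 17.4 in venous (2 UMIs) and 0 UMIs in arterial nuclei. With 3 UMIs as the floor over the arterial group (30.2 CPM), capillary Mfsd2a was at least 7.75-fold higher than arterial, a limit that fell to 4.23 without 5xFAD replicate 2. The ratio to venous was 13.5 (95% interval 3.68 to 112), and 25.2 without 5xFAD-P522R replicate 3.

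The receptor and the amino acid carrier had the same absence from arterial nuclei. Tfrc had 803 CPM in capillary and 122 in venous nuclei, so that the capillary level was at least 26.5-fold higher than arterial and 6.59 times the venous one (3.90 to 12.1). Without 5xFAD replicate 2 these values were 14.9 and 4.38, and without 5xFAD-P522R replicate 2 the ratio to venous was 11.8. Slc7a5 had 1152 and 261 CPM, at least 38.1-fold over arterial (22.4 without 5xFAD replicate 2) and 4.42 times venous (3.07 to 6.58).

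Slco1c1 lay at 2817 CPM in capillary, 496 in venous and 262 in arterial nuclei, a ratio of 5.68 to venous (4.37 to 7.53) and 10.7 to arterial (7.32 to 16.5). Slco1a4 lay at 5298, 3801 and 1099 CPM. Its ratio to arterial was 4.82 (3.99 to 5.89) and rose to 7.73 without 5xFAD replicate 2, whose nuclei gave most of the arterial UMIs, while the ratio to venous was 1.39 (1.26 to 1.54).

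The pumps were high in capillary and venous nuclei. Abcb1a lay at 1543, 1409 and 484 CPM in capillary, venous and arterial nuclei, with ratios of 1.10 to venous (0.929 to 1.30) and 3.19 to arterial (2.39 to 4.35). Abcg2 lay at 1518, 1261 and 343 CPM, with ratios of 1.20 (1.01 to 1.44) and 4.43 (3.15 to 6.43).

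Junction genes had 3 different orders. Cldn5 was highest in capillary nuclei, at 1077 CPM against 494 in arterial (ratio 2.18, 1.63 to 2.97) and 217 in venous nuclei (4.95, 3.33 to 7.70). Tjp1 was highest in venous nuclei, at 3088 CPM against 2418 in capillary and 1402 in arterial nuclei. For Ocln the capillary to venous ratio was 1.11 (0.82 to 1.54, and 2.06 without 5xFAD-M28L replicate 2) and the capillary to arterial ratio 0.981 (0.721 to 1.36).

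The remaining nuclei formed 2 sub-clusters not named as vessel segments. One (135 nuclei, led by Trpm3, Ntm and Gpc5) had 484 CPM of Cldn5, 4060 of Slco1a4, 1592 of Slco1c1 and 794 of Tfrc, and also 1324 CPM of the astrocyte glutamate carrier gene Slc1a2. The other (22 nuclei, median depth 8474 UMIs) was led by Nkain1, with oligodendrocyte genes among its leading genes.

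Whether the variants changed the barrier genes was asked by comparing libraries (edgeR quasi-likelihood test, Benjamini-Hochberg adjustment over 5997 genes, two-sided, threshold 0.05, all 6 libraries in 1 fit). None of the 10 members passed in endothelial-like nuclei in any of the 3 comparisons, while 0.3%, 0.233% and 0.0334% of all genes tested did (M28L against 5xFAD, P522R against 5xFAD, P522R against M28L). DESeq2 called 0 members as well. Unadjusted p-values were under 0.05 for 1, 0 and 2 members, and for 5.1%, 6.35% and 6.84% of all genes. All 10 had enough counts to be tested, and the comparisons share libraries, so they are given side by side.

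**Figure D3:**
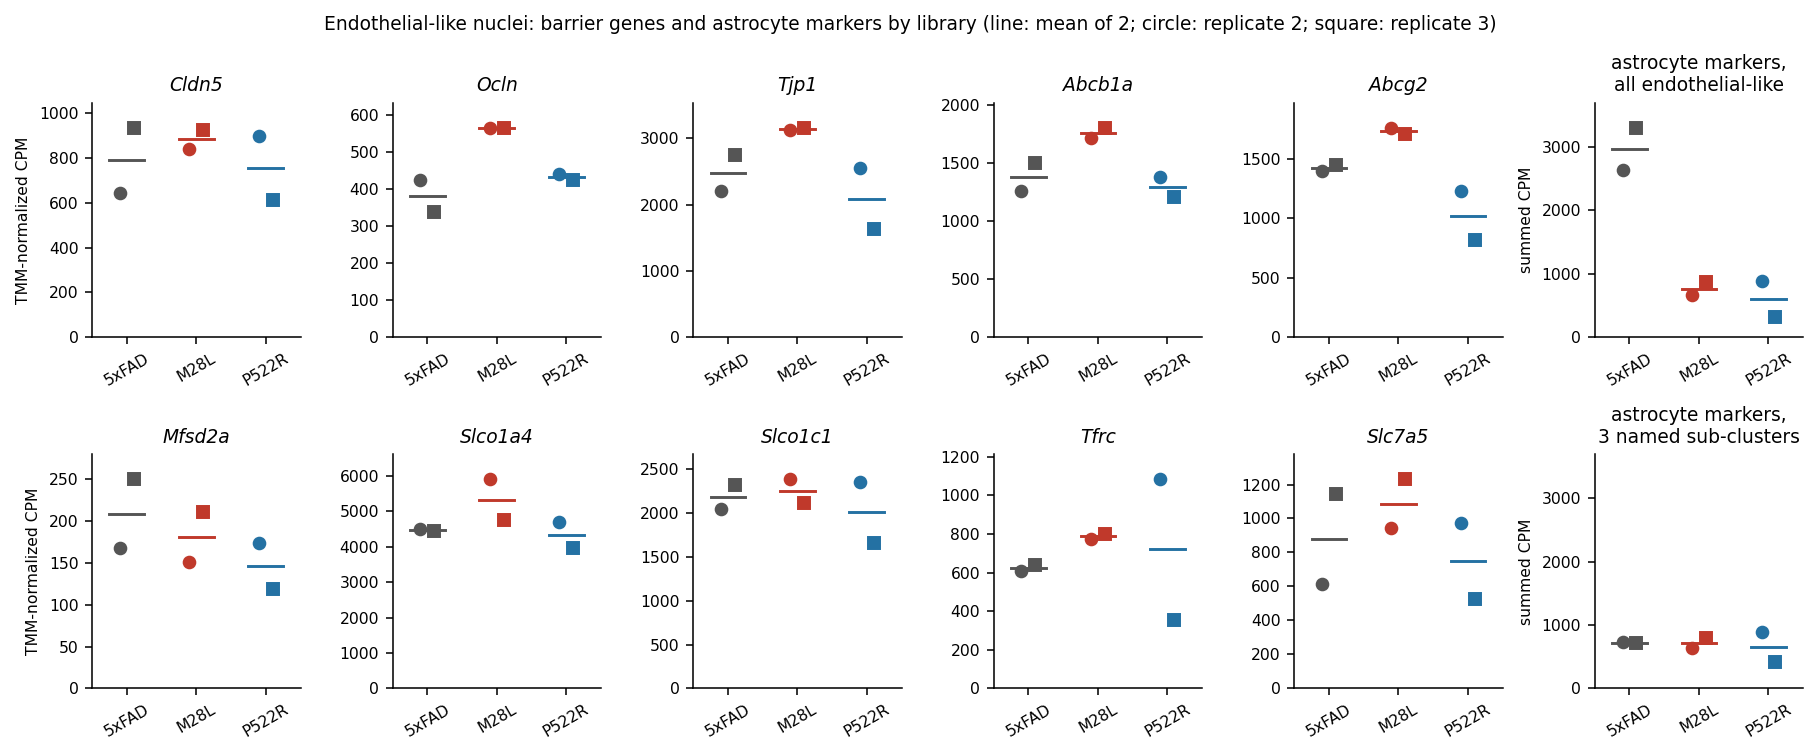
TMM-normalized CPM of each barrier gene in endothelial-like nuclei, with 1 point per library and the group mean as a line (circles replicate 2, squares replicate 3); the right-hand panels show the summed CPM of 12 astrocyte markers in all endothelial-like nuclei and in the 3 named sub-clusters. For Ocln, Tjp1, Abcb1a, Abcg2, Slco1a4 and Tfrc both M28L points lie above both 5xFAD points, and the astrocyte markers are at 2634 and 3295 CPM in 5xFAD against 656 and 872 in M28L.

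In M28L against 5xFAD 9 of 10 members had a positive log2 fold change, with a median of 0.30 against 0.002 over all genes tested. Without 5xFAD replicate 2, 6 were positive with a median of 0.22, and without any other single library 9 or 10 were positive. Libraries of the groups did not overlap, with M28L higher, for 6 members (Ocln, Tjp1, Abcb1a, Abcg2, Slco1a4 and Tfrc), against 18% of all genes. The 18 genes that passed were all lower in M28L, and none was a member. Summed astrocyte markers (12 of 12 detected) lay at 2634 and 3295 CPM in the 5xFAD endothelial-like nuclei, 656 and 872 in M28L and 888 and 322 in P522R. Of the endothelial-like nuclei with UMIs of either Xist or Y-linked genes but not both, those with Xist made up 65.7% and 63.5% in 5xFAD, 47.8% and 57.9% in M28L and 41.2% and 71.4% in P522R (the last of 7 nuclei). The part of this sex mix in the members' values was not tested. In the 3 named sub-clusters alone, where these markers lay at 410.1 to 888 CPM in the 6 libraries, 8 members were positive with a median of 0.10, and 3 did not overlap with M28L higher (15.8% of genes).

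Ocln had the smallest p of this comparison. Its normalized CPM was 424 and 337 in 5xFAD replicates 2 and 3, 564 and 564 in M28L and 439 and 424 in P522R. Both M28L libraries were above the other 4. The log2 fold change was 0.56 for M28L against 5xFAD (SE 0.226, unadjusted p = 0.0277, adjusted p = 0.842 by edgeR), 0.18 for P522R against 5xFAD (SE 0.245, adjusted p = 0.995) and −0.38 for P522R against M28L (SE 0.244, adjusted p = 0.909).

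Tjp1 lay at 2203 and 2750.3 in 5xFAD, 3128 and 3155 in M28L and 2552 and 1629 in P522R. The P522R libraries were far apart, and the lower was the one with 16 nuclei. Its change was 0.34 in M28L against 5xFAD (SE 0.227) and −0.56 in P522R against M28L (SE 0.232, unadjusted p = 0.0304, adjusted p = 0.658 by edgeR).

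Cldn5, the main claudin, gave 645 and 935 normalized CPM in 5xFAD, 841 and 927 in M28L and 900 and 611 in P522R. All 3 groups overlapped. The changes were 0.17 (SE 0.25), −0.01 (SE 0.262) and −0.18 (SE 0.263), all with an adjusted p of 0.959 or more by edgeR.

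The means of both pumps were highest in M28L and lowest in P522R, though not all groups were apart for both. Abcg2 lay at 1404 and 1448 in 5xFAD, 1763 and 1710 in M28L and 1235 and 815 in P522R, so that no pair of groups overlapped. In the named sub-clusters 5xFAD (1613 and 1671) and M28L (1852 and 1618) overlapped. It changed by 0.28 in M28L against 5xFAD (SE 0.219, adjusted p = 0.985 by edgeR), −0.44 in P522R against 5xFAD (SE 0.228, adjusted p = 0.865) and −0.72 in P522R against M28L (SE 0.229, unadjusted p = 0.0078, adjusted p = 0.449). Without 5xFAD-P522R replicate 3 the last value was −0.50, the smallest in size over the 6 libraries left out in turn.

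Abcb1a lay at 1263 and 1502 in 5xFAD, 1715 and 1803 in M28L and 1378 and 1205 in P522R. M28L was above both other groups, which overlapped each other, but in the named sub-clusters 5xFAD (1435 and 1948) overlapped M28L (1852 and 1780). The changes were 0.35 (SE 0.202), −0.09 (SE 0.208) and −0.44 (SE 0.209), the last with an unadjusted p of 0.058 and an adjusted p of 0.761 by edgeR.

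For the carriers Slco1c1 and Mfsd2a all groups overlapped, whereas both M28L libraries of Slco1a4 lay above every library of the other groups. Slco1a4 lay at 4515 and 4451 in 5xFAD, 5902 and 4756 in M28L and 4708 and 3954 in P522R, with changes of 0.25 (SE 0.189), −0.05 (SE 0.191) and −0.29 (SE 0.192). Slco1c1 lay at 2044 and 2318, 2383 and 2115, and 2356 and 1663, with changes of 0.05, −0.10 and −0.14 (SE 0.213 to 0.218). Mfsd2a, the least abundant member, lay at 168 and 249.7 in 5xFAD, 151 and 211 in M28L and 174 and 119 in P522R, and was the 1 member with a negative change in M28L against 5xFAD (−0.19, SE 0.3).

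The 2 members with the widest spread could not be ordered. Slc7a5 lay at 614 and 1144 in 5xFAD, 944 and 1230.0 in M28L and 974 and 526 in P522R, with changes of 0.31 (SE 0.315), −0.15 (SE 0.33) and −0.46 (SE 0.33). Tfrc lay at 607 and 641, 775 and 800.4, and 1083 and 356, with changes of 0.34 (SE 0.332), 0.33 (SE 0.342) and −0.01 (SE 0.344). For Tfrc both M28L libraries were above both 5xFAD ones, and the P522R libraries were above and below all 4 others.

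In P522R against 5xFAD 2 of 10 members were positive (median −0.09, against −0.006 over all genes), 1 did not overlap with P522R higher (Ocln, 16.8% of genes) and 1 with P522R lower (Abcg2, 19.1% of genes). Without 5xFAD-P522R replicate 3, 7 were positive and the median was 0.08. In P522R against M28L 0 of 10 were positive (median −0.34, against −0.007), and 5 did not overlap with P522R lower (Ocln, Tjp1, Abcb1a, Abcg2 and Slco1a4, against 18.6% of genes). Without that library 3 were positive with a median of −0.17, and in the named sub-clusters 2 were positive with a median of −0.26 and 5 did not overlap with P522R lower (18.3% of genes). Neuron markers (10 of 10 detected) summed to 2187 CPM in 5xFAD-P522R replicate 2 and to 475 to 740 in the other 5 libraries. The part of neuron and astrocyte markers in the members' values was not tested beyond these subsets.

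**Figure D4:**
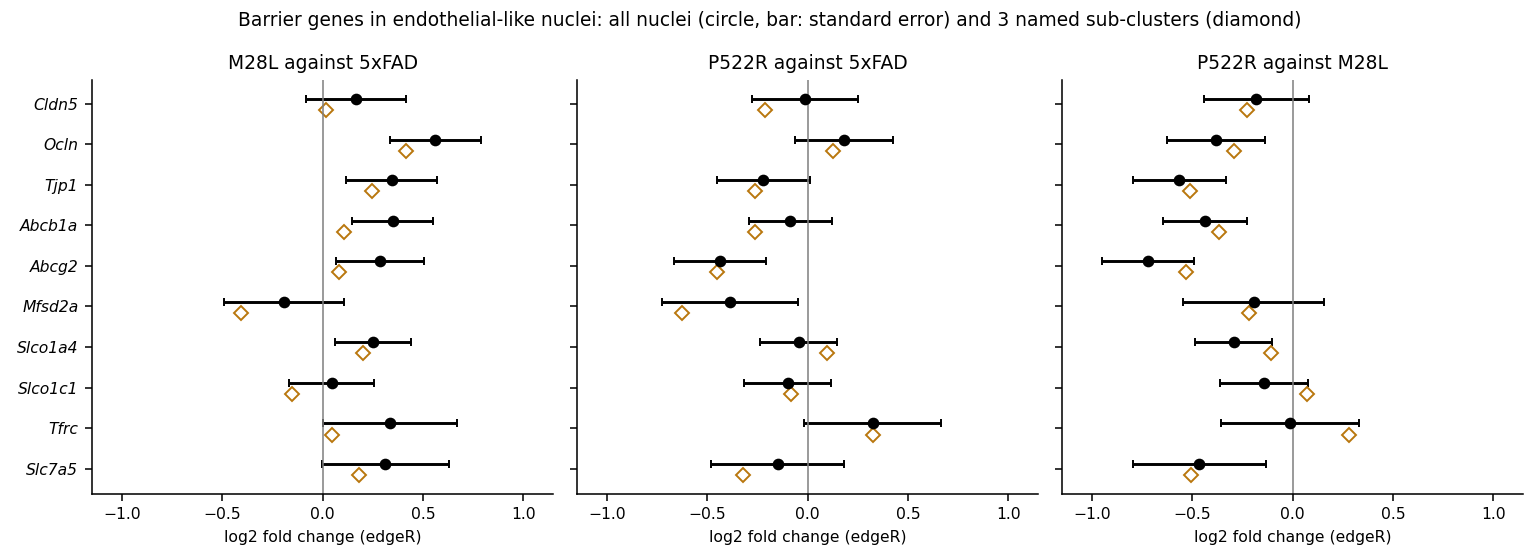
Log2 fold change of each barrier gene in endothelial-like nuclei for the 3 comparisons, over all nuclei (black circles, bars are standard errors) and over the 3 named sub-clusters (open diamonds). In M28L against 5xFAD 9 circles and 8 diamonds lie above 0, and in P522R against M28L all 10 circles and 8 diamonds lie below 0.

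Of the listed genes of the same pathways, 0 passed by edgeR in endothelial-like nuclei in any comparison. The lists had 16 of 24 junction, 4 of 6 pump, 17 of 22 carrier, 9 of 13 receptor and 23 of 23 Wnt genes tested. In M28L against 5xFAD 1, 1, 2, 0 and 1 of them had an unadjusted p under 0.05, with medians of 0.08, 0.14, 0.23, 0.41 and 0.18, in P522R against 5xFAD 0, 0, 0, 0 and 2, with medians of −0.06, 0.24, −0.01, −0.10 and −0.03, and in P522R against M28L 0, 0, 2, 2 and 3, with medians of −0.23, −0.29, −0.22, −0.31 and −0.31. These counts stand against the 5.1%, 6.35% and 6.84% of all genes. The pumps in P522R against 5xFAD had a positive median, unlike the members, and the other medians had the sign of the members' median. Slc2a1, the glucose carrier, changed by −0.60 in P522R against M28L (SE 0.23, unadjusted p = 0.0225, adjusted p = 0.572 by edgeR), and Lef1 by −0.53 (SE 0.243, adjusted p = 0.72).

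The endothelial-like share of nuclei was 1.05% and 0.763% in 5xFAD, 0.770% and 0.666% in M28L and 0.524% and 0.168% in P522R. Both P522R libraries were lowest. On the log2 scale the share changed by −0.34 in M28L against 5xFAD (SE 0.512, adjusted p = 0.829 by edgeR), −1.39 in P522R against 5xFAD (SE 0.536, adjusted p = 0.324) and −1.05 in P522R against M28L (SE 0.54, adjusted p = 0.419). With each of the 6 libraries left out in turn, the last 2 ran from −2.43 to −0.80 and from −2.09 to −0.45. The largest falls came without 5xFAD-P522R replicate 2, where the lone P522R library, with 16 endothelial-like nuclei, was assumed to vary like the others. Both P522R libraries were also lowest in the share of astrocyte-like (−1.85 against 5xFAD, adjusted p = 0.181 by edgeR), fibroblast-like (−1.34, adjusted p = 0.324) and pericyte-like nuclei (−0.94, adjusted p = 0.324). Fewer sorted or captured nuclei and fewer cells in the tissue cannot be told apart.

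Outside the endothelium 3 members could be tested in pericyte-like nuclei, 6 in fibroblast-like and 7 in astrocyte-like nuclei, and none passed by edgeR in any comparison. The background share of genes that passed was 0.0168%, 0.101% and 0.084% in pericyte-like nuclei, 0% in fibroblast-like nuclei, and 0%, 0.0292% and 0% in astrocyte-like nuclei, in the same order of comparisons. At an unadjusted p under 0.05 there were 0 members in pericyte-like nuclei, 0, 2 and 2 in fibroblast-like and 1, 3 and 4 in astrocyte-like nuclei. DESeq2 called 1 of these members, Slco1c1 in astrocyte-like nuclei in P522R against 5xFAD, and 0 others. Over all genes an unadjusted p under 0.05 by edgeR was found for 4.1%, 6.79% and 6.74% in pericyte-like nuclei, for 3.14%, 5.47% and 5.02% (317, 553 and 507 genes) in fibroblast-like and for 5.12%, 10.6% and 8.48% (703, 1450 and 1164 genes) in astrocyte-like nuclei.

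Among astrocyte-like libraries 3 members (Mfsd2a, Slco1a4 and Slc7a5) did not overlap with M28L higher than 5xFAD, against 19.3% of genes, and 2 (Slco1c1 and Tfrc) with M28L lower, against 18.3%. P522R was lower than 5xFAD for 3 (Tjp1, Slco1a4 and Slco1c1, against 21.1%) and higher for 0 (21.2%). P522R was lower than M28L for 4 (Tjp1, Mfsd2a, Slco1a4 and Slco1c1, against 18.9%) and higher for 1 (Tfrc, 19.3%). Slco1a4 was very low there, at 1.95 and 1.39 normalized CPM in 5xFAD, 4.66 and 2.35 in M28L and 0.345 and 0 in P522R. Its endothelial-like level was 2079 times the astrocyte-like and 1182 times the oligodendrocyte-like one, so these orders rest on background-like levels. Only the M28L libraries of Slco1a4 reached the bound of the filter on low counts, so it was tested through the group where it is high. Its orders with M28L are therefore not read as a result. It is also counted above among astrocyte-like members at an unadjusted p under 0.05 in both comparisons with P522R, with the same limit. For fibroblast-like libraries M28L was above 5xFAD for 1 member (Abcg2, 16.8% of genes) and below it for 1 (Ocln, 16.9%). P522R was above both other groups for Ocln (17.1% of genes against 5xFAD, 16.3% against M28L) and below both for Tjp1 and Slco1c1 (19% and 17.6%). For pericyte-like libraries M28L was above 5xFAD for Tfrc (16.4% of genes) and below it for Abcg2 (16.6%). P522R and 5xFAD overlapped there for all 3 members tested (17.8% of genes higher, 18.1% lower). P522R was above M28L for Tjp1 and Abcg2 (17.6%) and below it for Tfrc (18.5%).

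**Figure D5:**
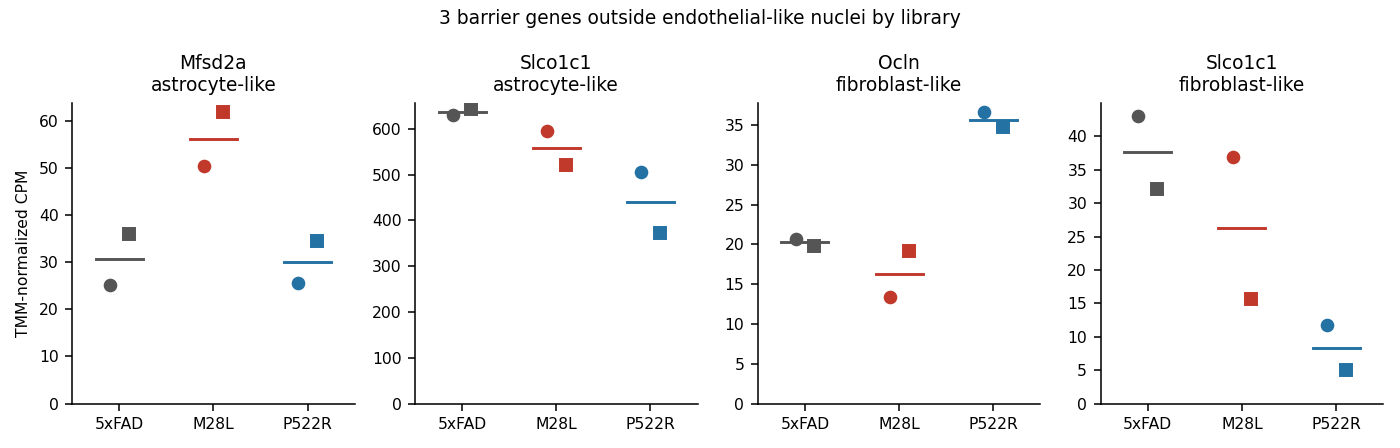
TMM-normalized CPM by library of Mfsd2a and Slco1c1 in astrocyte-like nuclei and of Ocln and Slco1c1 in fibroblast-like nuclei (points are libraries, lines are means of 2). Mfsd2a in astrocyte-like nuclei is at 50.3 and 62.0 in M28L against 25.1 to 36.1 in the other 4 libraries, and Slco1c1 is lowest in both P522R libraries in both cell types.

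In astrocyte-like nuclei Mfsd2a lay at 25.1 and 36.1 normalized CPM in 5xFAD, 50.3 and 62.0 in M28L and 25.6 and 34.6 in P522R. Both M28L libraries were above the other 4. The log2 fold change was 0.88 in M28L against 5xFAD (SE 0.204, unadjusted p = 0.00217, adjusted p = 0.926 by edgeR) and −0.94 in P522R against M28L (SE 0.236, unadjusted p = 0.00332, adjusted p = 0.538). With no filter on low counts the adjusted p was 0.000124 and 8.44e-05 by edgeR, where 179 and 450 genes passed, against 0 and 0 in the main fit. Among sexed nuclei, counted as above, those with Xist made up 58.5% and 54.4% in 5xFAD, 41.4% and 41.6% in M28L and 36.5% and 54.5% in P522R, and the part of this in the values was not tested.

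Slco1c1 in astrocyte-like nuclei lay at 630 and 643 in 5xFAD, 595 and 520.2 in M28L and 505 and 374 in P522R. Groups did not overlap in any comparison. Slco1c1 changed by −0.53 in P522R against 5xFAD (SE 0.14, unadjusted p = 0.00475, adjusted p = 0.325 by edgeR). This change passed with DESeq2 (adjusted p = 0.0482) and by edgeR with no filter on low counts (adjusted p = 0.000294). In that comparison 81 genes passed by DESeq2 and 738 with no filter, against 4 in the main edgeR fit. With each of the 6 libraries left out in turn the change ran from −0.78 to −0.33. The Rpe65 cluster, where Slco1c1 is higher, held 71.4% of the astrocyte-like nuclei of 5xFAD-P522R replicate 3 and 81.2% to 86.3% in the other 5 libraries. Within that cluster Slco1c1 lay at 674 and 658 CPM in 5xFAD, 620 and 547 in M28L and 585 and 484 in P522R, where P522R overlapped M28L but not 5xFAD. Its change there was −0.37 in P522R against 5xFAD (adjusted p = 0.391 by edgeR).

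In fibroblast-like nuclei Slco1c1 lay at 43.1 and 32.1 in 5xFAD, 36.9 and 15.7 in M28L and 11.7 and 4.97 in P522R. Its change in P522R against 5xFAD was −1.90 (SE 0.541, unadjusted p = 0.00339, adjusted p = 0.746 by edgeR). With no filter on low counts the adjusted p was 0.0484 by edgeR, where 63 genes passed against 0 in the main fit. The P522R libraries held 675084 and 207060 UMIs in these nuclei, so their levels rest on few UMIs. Slco1c1 was also lower in pericyte-like nuclei (74.3 and 20.5 in 5xFAD, 3.54 and 0 in P522R), where it was not tested. In fibroblast-like nuclei summed astrocyte markers lay at 7255 and 5697 CPM in 5xFAD and 5827 and 6066 in P522R. The part of astrocyte transcripts in these values was not tested. Ocln, at 20.7 and 19.8 in 5xFAD, 13.4 and 19.2 in M28L and 36.6 and 34.8 in P522R, was highest in both P522R libraries (0.83 against 5xFAD, SE 0.388, adjusted p = 0.898 by edgeR). It had 104 UMIs over all 6 libraries in these nuclei, so its levels rest on few UMIs as well.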

How the data were processed

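For each library the authors deposited raw counts, the number of UMIs per gene and barcode without normalization, from 10x Genomics 3' v3 kits. The tool in the submitters' processing notes is Cell Ranger 6.1.2 and the build mm10. Per the file headers 1 library, 5xFAD-P522R replicate 3, was made with version 5.0.1. Whether introns were counted is not given in the sources used here.

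Barcodes needed at least 500 UMIs, 300 genes and a mitochondrial share of 5% or less, which left 62651 of 62687. Scrublet (scanpy 1.11.5, expected rate 0.08) called doublets. Its automatic threshold marked under 0.5% in 3 libraries, so 0.2952, the median of the other 3, was used for all, and 2962 nuclei were removed. Clusters (2000 variable genes without the 98 barrier genes, 30 components, 20 neighbours, Leiden resolution 1, igraph 0.11.9) were named from marker lists, with a share of at least 0.4 of markers raised (0.25 for neurons) and a margin of 0.1 over the next type. These bounds and the sub-cluster resolution of 0.5 were set after looking at the clusters. Names carry "-like" since only markers support them.

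UMIs were summed per library and type and tested with edgeR 4.0.16 under R 4.3.3, by the quasi-likelihood test after TMM scaling, without a replicate term and with filterByExpr at a minimum count of 10. A type was to have 20 nuclei in every library. Since 1 library had 16 endothelial-like nuclei, 15 was used, chosen after the numbers were seen. The standard error was taken as the log2 fold change divided by the square root of F. Numbers of nuclei per type were tested the same way. Scripts were tested on simulated counts. Intervals are exact at 95%, and floors are 3 UMIs. Gene positions are from GENCODE vM21 on GRCm38.

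All 10 members are named. From each list the genes past the threshold and up to 4 with the highest endothelial mean are named, and for each member up to 3 genes most alike (Pearson, mean of at least 20 CPM in a type). For Slc7a5 this result is not reported here. The tests shown for Slc2a1 and Lef1, the unnamed clusters and the astrocyte and fibroblast clusters were singled out after their values were seen. The members and lists were chosen with earlier results of these data known. Results were recomputed with DESeq2 1.42.0, with RLE size factors, with no filter or a minimum of 50, in fits of 4 libraries, with a replicate term, with at least 1000 UMIs, with doublets kept, with the barrier genes in the clustering, at resolution 2 and without each library. Restrictions to the 3 named endothelial sub-clusters, to endothelial nuclei without the arterial and venous ones and to the astrocyte cluster led by Rpe65 were added after seeing the data.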

Additional observations from a re-analysis of the deposited data

Results flagged for a closer look

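In 11 combinations of a gene, a comparison and a pair of cell types, every library of 1 group lay above every library of the other in 1 type and below in the other type. The share of all genes that meets this rule was not counted, so the 11 are not read as a result about the members. Within a single cell type and comparison, 16.3% to 21.2% of all genes did not overlap in a given direction. The differences between cell types were not tested. Values are the log2 fold change in the first type minus that in the second.

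Ocln differed between endothelial-like and fibroblast-like nuclei by 0.93 in M28L against 5xFAD (0.56 and −0.37) and by −1.58 in P522R against M28L (−0.38 and 1.20). Its fibroblast-like values rest on 104 UMIs over all 6 libraries. Tjp1, in P522R against M28L, differed by −0.69 between endothelial-like and pericyte-like nuclei (−0.56 and 0.13), by 0.46 between pericyte-like and fibroblast-like nuclei (0.463) and by 0.46 between pericyte-like and astrocyte-like nuclei (0.459). Abcg2 differed in M28L against 5xFAD by 0.69 between endothelial-like and pericyte-like nuclei (0.28 and −0.40) and by −0.61 between pericyte-like and fibroblast-like nuclei, and in P522R against M28L by −1.34 between endothelial-like and pericyte-like nuclei (−0.72 and 0.61). Tfrc differed in M28L against 5xFAD by 0.53 between endothelial-like and astrocyte-like nuclei and by 0.69 between pericyte-like and astrocyte-like nuclei (0.50 and −0.19), and in P522R against M28L by −0.66 between pericyte-like and astrocyte-like nuclei (−0.43 and 0.24).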

How the results depend on the processing

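No member passed in endothelial-like nuclei by edgeR or DESeq2 under any setting tried, and all 10 had their highest level there under each of the 11 alternatives. Of 890 member fold changes recomputed, 841 kept their direction and side of the threshold, 41 changed sign and 8 came to pass. The number of genes called moved by more than 1.5 times in 92 of 201 alternatives, and the cause was not tested. In endothelial-like nuclei (18 genes for M28L against 5xFAD, then 14 for P522R against 5xFAD and 2 for P522R against M28L) it was 57, 154 and 114 with no filter, 4, 1 and 0 with a minimum count of 50, 11, 5 and 0 with doublets kept and 8, 9 and 0 with the barrier genes in the clustering. It was 32, 52 and 27 with the arterial and venous sub-clusters left out, and 0, 0 and 0 in the 3 named sub-clusters alone (112, 148 and 172 genes at an unadjusted p under 0.05 by edgeR). In fits of 4 libraries it was 33 in the first and 1 in the last comparison, and with DESeq2 7 in the second. In pericyte-like nuclei (1, 6 and 5) it was 10, 56 and 60 with no filter, 0 and 1 with DESeq2 in the first and last comparison, 2 and 1 with doublets kept in the last pair, and for P522R against M28L 1 with a minimum count of 50 and 21 in a fit of 4 libraries. In fibroblast-like nuclei (0, 0 and 0) it was 26, 63 and 39 with no filter. In astrocyte-like nuclei (0, 4 and 0) it was 179, 738 and 450 with no filter, 1, 81 and 67 with DESeq2, and for P522R against 5xFAD 0 both in a fit of 4 libraries and with doublets kept, and 1 in the cluster led by Rpe65 alone, where Mfsd2a was 0.041. Replicate numbers were not treated as pairing: deviations of same-numbered libraries correlated at 0.013 to 0.089 in endothelial-like, 0.017 to 0.042 in pericyte-like, 0.033 to 0.123 in fibroblast-like and 0.106 to 0.318 in astrocyte-like nuclei, each comparison has 2 pairs, and the labels give the numbers no meaning. With a replicate block 9 and 0 genes were called in the last 2 endothelial comparisons, 0 and 3 in the first and last pericyte comparison and 18, 189 and 1 in astrocyte-like nuclei, where Mfsd2a in M28L against 5xFAD (0.89, adjusted p = 0.0346 by edgeR) and Slco1c1 in P522R against 5xFAD (−0.54, adjusted p = 0.0475) passed. Endothelial sign changes in M28L against 5xFAD were Slco1c1 at −0.037 with a minimum count of 50 and −0.15 in the named sub-clusters. In P522R against 5xFAD Cldn5 was 0.002 with RLE size factors, 0.059 with a minimum count of 50, 0.01 with the block, 0.027 with doublets kept and 0.049 without arterial and venous nuclei, Abcb1a was 0.049 without these, and Slco1a4 was 0.028 with a minimum count of 50, 0.013 without these and 0.098 in the named sub-clusters. In P522R against M28L Slco1c1 was 0.011 with a minimum count of 50 and 0.074 in the named sub-clusters, and Tfrc was 0.005 with RLE size factors, 0.132 with a minimum count of 50, 0.022 with doublets kept, 0.009 with the barrier genes in the clustering, 0.027 without arterial and venous nuclei and 0.28 in the named sub-clusters. Leaving out each library in turn gave 6 to 55, 8 to 117 and 1 to 110 genes called in endothelial-like nuclei (each highest without 5xFAD-P522R replicate 3), 1 to 23, 6 to 92 and 3 to 67 in pericyte-like, 0 to 3, 0 to 15 and 0 to 2 in fibroblast-like and 0 to 1, 0 to 259 and 0 to 198 in astrocyte-like nuclei (the last 2 highest without 5xFAD-P522R replicate 2). In these fits M28L against 5xFAD ranged from −0.074 to 0.465 for Cldn5, −0.462 to 0.113 for Mfsd2a, −0.043 to 0.149 for Slco1c1 and −0.068 to 0.833 for Slc7a5. P522R against 5xFAD ranged from −0.40 to 0.24 for Cldn5, −0.637 to 0.037 for Tjp1, −0.239 to 0.014 for Abcb1a, −0.215 to 0.064 for Slco1a4, −0.42 to 0.10 for Slco1c1, −0.84 to 0.79 for Tfrc and −0.76 to 0.32 for Slc7a5. P522R against M28L ranged from −0.567 to 0.023 for Cldn5, −0.632 to 0.017 for Mfsd2a, −0.471 to 0.062 for Slco1c1 and −1.18 to 0.46 for Tfrc. In astrocyte-like nuclei P522R against 5xFAD ranged from −0.31 to 0.21 for Mfsd2a and −0.78 to −0.33 for Slco1c1. The log2 change of the endothelial-like share ranged from −0.55 to −0.09, −2.43 to −0.80 and −2.09 to −0.45. The settings of at least 1000 UMIs and of doublets kept used the cluster names of the main clustering. Depth limits what could be seen: 2 libraries a group and as few as 16 endothelial-like nuclei in 1 library leave standard errors of 0.189 to 0.344 for the members, and with 14.4% of thinned nuclei holding a UMI, Mfsd2a is the least precise by count.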

Other observations

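A cluster of 43 nuclei led by Dpp4, Prg4 and Dapl1, was left without a name and singled out after its values were seen. Summed over libraries it had 3107 CPM of Tjp1, 506 of Abcb1a, 281 of Abcg2 and 197 of Ocln. It had 0 UMIs of Cldn5, Mfsd2a and Slco1a4, where 3 UMIs would be 12.1 CPM. Fibronectin (Fn1) and E-cadherin (Cdh1) genes were among its 10 leading genes.

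Another unnamed cluster, of 47 nuclei led by the pericyte genes Vtn, Rgs5 and Ndufa4l2, had all members at levels near those of endothelial-like nuclei, with 778 CPM of Cldn5, 3368 of Slco1a4, 1846 of Slco1c1 and 165 of Mfsd2a. At resolution 2 the cluster with these leading genes had all 16 endothelial markers raised, and a share of 0.9 of the pericyte markers. The endothelial markers Adgrl4 and Ly6c1 were among its 10 leading genes, so it is not a cluster of pericytes alone. Its median depth was 11830 UMIs per nucleus, against 3320 in endothelial-like and 3197 in pericyte-like nuclei, and 97.9% of its thinned nuclei held at least 3 members.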
